A study of Mus musculus with 10 samples.

Results

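Histones are the proteins around which DNA is wound, and the transcripts of all histone genes that could be read were compared in lenses of mouse embryos with and without Dicer in the lens lineage. Members were the probe sets whose platform annotation carries a histone symbol. The annotation uses the newer symbols, which were tied to the older Hist1h to Hist4h, H2af, H3f3 and H1fx symbols through RefSeq synonyms. In all, 102 symbols and 97 probe sets qualified. One probe set was kept for each gene, the one with the highest mean over the 10 arrays, and a probe set that reads several genes was counted once. This left 39 histone features of 20162 features tested. Of these, 19 were replication-dependent histones (69 symbols), 10 were replacement histones (10 symbols) and 10 were germline variants (23 symbols). The germline variants are known from testis or egg and were kept apart from both other classes. The testis genes H1f6, H2ac1 and H2bc1 and the pseudogene H2bu1-ps stayed in the replication-dependent class by their older symbols. H1f0 was not analysed here.

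The DicerCN group comprised 5 embryos of genotype Le-Cre+/-;DicerloxP/loxP, and the control group 5 embryos of genotype Le-Cre-/-;DicerloxP/loxP, all at E13.5. Both groups therefore carried the loxP-flanked Dicer alleles, and the control titles call these embryos wild type. Only the DicerCN embryos carried Le-Cre, so an effect of the transgene itself cannot be told apart from loss of Dicer. Le-Cre is a transgene that uses the Pax6 P0 promoter to make Cre recombinase in cells derived from surface ectoderm, which are those of the lens and the corneal epithelium. Other cells of a dissected lens keep the intact alleles. Dicer is the ribonuclease that releases mature microRNAs from their precursors. Both lenses of an embryo were combined, and 100 ng of total RNA per embryo was read on 1 Affymetrix array with the whole-transcript sense target assay, which gives a log2 signal per probe set.

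Replication-dependent histone genes lie in clusters, are transcribed in S phase and make up the bulk of the H1, H2A, H2B, H3 and H4 that packages new DNA. Their messenger RNAs end in a stem-loop in place of a poly(A) tail, are bound there by SLBP and decay when DNA synthesis stops. Replacement histones, such as H3.3, H2A.Z and macroH2A, come from single genes with introns and poly(A) tails, and are laid down outside S phase as well. In the lens, epithelial cells divide and fibre cells leave the cell cycle as they elongate. The whole-transcript assay primes along the RNA, so stem-loop messages without a tail are read too.

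The promoters of both kinds of gene are shown for some members and for H2bc14, whose own probe set lies outside the members. H1f5 and H1f2 are replication-dependent linker histones of which DicerCN embryos 4 and 5 had the highest H1f5 and the lowest H1f2 signals among DicerCN lenses, H3f3b and H2az2 are replacement histones that missed the threshold in the main test and passed it in at least 1 alternative, and H2bc14 is an H2B gene with a probe set of its own, chosen after its values were seen. The sequences are the 250 bases before the transcription start from RefSeq (GRCm38.p6), written 5′ to 3′ along the gene. Capitals mark the letters of 4 motifs on either strand: the TATA box core TATAA, the CCAAT box, the H1 box AAACACA and the octamer ATTTGCAT. In H1f5 the TATA core matches overlap on the 2 strands. The H1f5 window is chr13:21780626-21780875 (minus strand), H1f2 is chr13:23738557-23738806 (plus), H2bc14 is chr13:21721794-21722043 (plus), H3f3b is chr11:116024505-116024754 (minus) and H2az2 is chr11:6444444-6444693 (minus).
H1f5: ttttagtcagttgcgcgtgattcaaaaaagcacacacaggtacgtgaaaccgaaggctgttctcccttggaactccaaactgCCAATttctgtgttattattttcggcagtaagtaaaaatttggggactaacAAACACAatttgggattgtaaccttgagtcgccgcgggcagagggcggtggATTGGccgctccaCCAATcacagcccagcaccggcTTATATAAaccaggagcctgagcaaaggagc
H1f2: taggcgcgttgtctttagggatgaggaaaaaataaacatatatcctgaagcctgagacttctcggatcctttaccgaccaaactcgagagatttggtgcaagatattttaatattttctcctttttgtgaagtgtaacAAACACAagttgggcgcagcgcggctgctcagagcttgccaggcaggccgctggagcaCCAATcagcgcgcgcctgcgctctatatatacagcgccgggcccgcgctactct
H2bc14: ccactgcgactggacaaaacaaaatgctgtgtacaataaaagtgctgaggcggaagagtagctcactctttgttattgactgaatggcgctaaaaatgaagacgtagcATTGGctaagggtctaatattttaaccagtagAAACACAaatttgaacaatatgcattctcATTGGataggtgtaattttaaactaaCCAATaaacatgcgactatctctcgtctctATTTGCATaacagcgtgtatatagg
H3f3b: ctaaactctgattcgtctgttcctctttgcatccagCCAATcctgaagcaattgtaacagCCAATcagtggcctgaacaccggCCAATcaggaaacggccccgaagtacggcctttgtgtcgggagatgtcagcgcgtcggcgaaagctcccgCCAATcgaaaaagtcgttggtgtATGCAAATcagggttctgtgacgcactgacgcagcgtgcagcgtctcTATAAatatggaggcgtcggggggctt
H2az2: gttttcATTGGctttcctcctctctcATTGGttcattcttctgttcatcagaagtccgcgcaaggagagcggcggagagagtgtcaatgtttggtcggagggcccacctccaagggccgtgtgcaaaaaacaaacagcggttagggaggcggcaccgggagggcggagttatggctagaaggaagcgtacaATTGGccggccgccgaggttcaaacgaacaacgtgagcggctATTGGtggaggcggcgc

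Such windows were at hand for 62 of the 69 replication-dependent genes (63 promoters) and for 8 of the 10 replacement genes. TATAA occurred in 65.1% of the replication-dependent promoters, 12.5% of the replacement promoters and 22.8% of all 32851 promoters of the table. CCAAT occurred in 82.5% of the replication-dependent promoters, 62.5% of the replacement promoters and 33.8% of all promoters. By family, CCAAT stood in all 18 H2A and all 17 H2B promoters but in 3 of 12 H4 promoters. AAACACA was present in 5 of 6 H1 promoters (83.3%), against 6.25% of all promoters. The octamer stood in 41.2% of H2B and 38.9% of H2A promoters, in 0 of the H1, H3 and H4 promoters and in 1.6% of all promoters. A match is a string of letters and is not shown to be a bound site. H1f2 holds no TATAA in this window, which says only that these letters are not there.

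Across the whole table the array medians lay between 6.54 and 6.56 and the correlations between arrays between 0.977 and 0.990. Of all features, 1332 passed the test (limma, adjusted p under 0.05), which is 6.61%, with 816 lower (4.05%) and 516 higher (2.56%) in DicerCN lenses. Dicer1 itself had 10.37, 10.26, 10.19, 10.20 and 10.45 in DicerCN lenses, against 10.23, 10.01, 10.32, 10.08 and 10.20 in control lenses (limma adjusted p = 0.470). No source used here tells whether its probe set covers the deleted part, so these signals do not check the labels. Lens markers were present throughout, with Cryaa, the alpha-A crystallin, at 14.33 to 14.41 in DicerCN lenses and 14.37 to 14.46 in control lenses. The next brightest, Cryba1, was lower without overlap, at 13.756 to 13.919 in DicerCN lenses and 13.921 to 14.027 in control lenses (limma adjusted p = 0.363). Of 14 lens markers 13 were lower in mean in DicerCN lenses. Markers of striated muscle stood apart in control 4, which had a mean deviation of 2.89 on the log2 scale over 12 genes, whereas it was -0.87 to -0.58 in the DicerCN arrays and -0.92 to -0.54 in the other control arrays.

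No histone feature passed the test: 0 of 39 had an adjusted p under 0.05 with limma, beside 6.61% of all features, and 2 of 39 had an unadjusted p under 0.05, beside 18.7%. The DicerCN and control arrays overlapped for every one of the 39 features, whereas 7.46% of all features showed no overlap. The 19 replication-dependent features had a median log2 change of -0.011 (range -0.24 to 0.35), with 7 higher and 12 lower in mean. Without the features of the testis genes H1f6, H2ac1 and H2bc1 the median was -0.018 over 16 features. The 10 replacement features had a median of -0.0045 (range -0.37 to 0.38), with 5 higher and 5 lower. The median over all features was -0.0021. In whole lenses, fewer cells of a type and less RNA per cell cannot be told apart, and since the arrays had been scaled to each other, a change in total RNA per lens would not be seen.

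**Figure D1:**
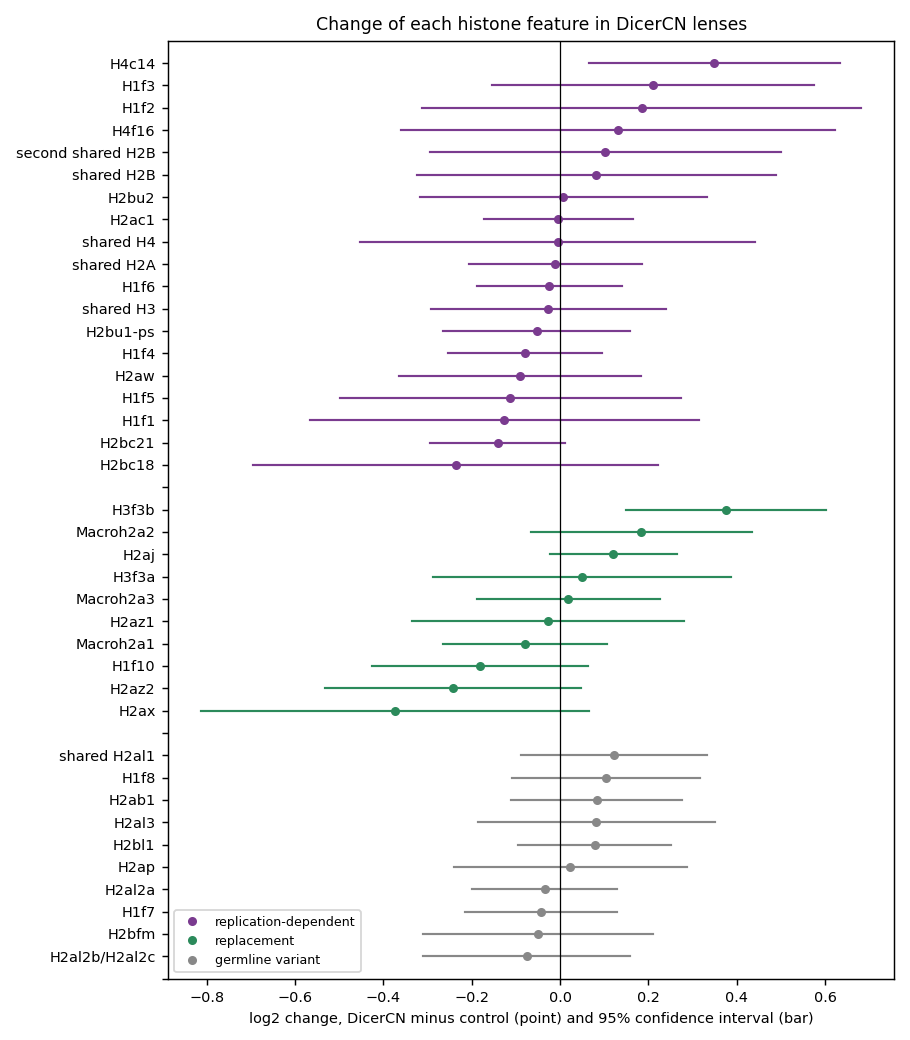
Log2 change, DicerCN minus control, of the 39 histone features (point) with its 95% confidence interval (bar), by class, over 5 arrays per group. The points lie between -0.37 for H2ax and 0.38 for H3f3b, and intervals clear of 0 are seen for H4c14 and H3f3b.

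The linker histones, H1, bind the DNA between nucleosomes. H1f5 had 10.73, 10.63, 10.68, 11.51 and 11.52 in DicerCN embryos 1 to 5, against 11.10, 11.29, 11.15, 11.13 and 10.96 in control embryos 1 to 5. DicerCN embryos 1 to 3 lay below every control array and embryos 4 and 5 above every one, so that the change of -0.11 (SE 0.18, 95% interval -0.50 to 0.27, adjusted p = 0.818) is a mean of embryos on both sides of the control range. H1f1 was likewise highest in DicerCN embryos 4 and 5 among the DicerCN lenses, with 9.89, 9.47, 9.45, 10.43 and 10.30, against 9.92, 10.44, 10.22, 9.93 and 9.66 in controls (change -0.13, adjusted p = 0.824), and here DicerCN embryo 1 lay within the control range.

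H1f2 differed from both in embryos 4 and 5. It had 9.66, 9.50, 10.06, 8.76 and 9.01 in DicerCN embryos, against 9.27, 9.26, 9.63, 9.23 and 8.68 in controls (change 0.19, 95% interval -0.31 to 0.68, adjusted p = 0.751). DicerCN embryos 4 and 5, highest for H1f5, were lowest for H1f2. H1f3 was high in DicerCN embryos 1 and 2, with 6.72, 6.63, 6.09, 6.20 and 5.99 in DicerCN lenses, against 6.17, 6.18, 6.52, 5.70 and 6.003 in control lenses (change 0.21, adjusted p = 0.581). H1f4, whose probe set is annotated with H2bc6 as well, varied least of these and had a mean of 8.64 ± 0.10 in DicerCN lenses and 8.72 ± 0.12 in control lenses (SD, n = 5 each, adjusted p = 0.679).

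The core histones of the clusters are near-identical in sequence, and most of their genes are read by shared probe sets that cannot part one gene from another. The H2A set used here is annotated with 20 symbols, the H2B set with 14, the H3 set with 12 and the H4 set with 11. H2A and H2B form the dimer, and H3 and H4 the tetramer, of the nucleosome core. The shared H2A set had 12.73, 12.50, 12.65, 12.91 and 12.96 in DicerCN embryos, against 12.77, 12.83, 12.73, 12.73 and 12.74 in controls (change -0.01, 95% interval -0.21 to 0.19, adjusted p = 0.973). The control arrays lay within a narrow band, with DicerCN embryos 2 and 3 below it and 4 and 5 above it.

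The shared H2B set had 11.80, 11.16, 11.22, 12.13 and 12.01 in DicerCN embryos, against 11.41, 11.94, 11.55, 11.62 and 11.39 in controls (change 0.08, 95% interval -0.32 to 0.49, adjusted p = 0.885). The shared H4 set had 11.49, 10.66, 10.82, 11.66 and 11.53 in DicerCN embryos, against 11.16, 11.74, 11.20, 11.20 and 10.88 in controls (change -0.01, 95% interval -0.45 to 0.44, adjusted p = 0.993). As for the H2A set, DicerCN embryos 2 and 3 were the lowest and 4 and 5 the highest of the DicerCN lenses, while control 2 was the highest control array for each. The shared H3 set had 12.46, 12.56, 12.90, 12.90 and 13.19 in DicerCN embryos, against 12.83, 12.85, 12.93, 12.71 and 12.82 in controls (change -0.03, 95% interval -0.29 to 0.24, adjusted p = 0.948). For H3 the low DicerCN embryos were 1 and 2. A further shared H2B set, annotated with 15 symbols and kept because it is the brightest for H2bc1, changed by 0.10 (adjusted p = 0.844). Its signals in DicerCN embryos, 11.79, 11.17, 11.21, 12.10 and 12.00, were close to those of the first H2B set. Counts of replication-dependent features therefore hold nearly the same H2B signal in both sets.

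The choice of shared probe set made little difference to these values. The 7 shared H2B sets gave changes of 0.08 to 0.12, the 10 H3 sets -0.03 to 0.02, the 5 H4 sets -0.02 to 0.01 and the 2 H2A sets -0.03 to -0.01.

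H4c14 was the replication-dependent histone with the lowest p. This H4 gene of a smaller cluster had 10.93, 10.50, 11.13, 11.21 and 11.23 in DicerCN embryos, against 10.66, 10.80, 10.73, 10.51 and 10.54 in controls. DicerCN embryos 1, 3, 4 and 5 exceeded every control and embryo 2 lay below every one. The change of 0.35 (SE 0.13, 95% interval 0.06 to 0.63, 1.27-fold) did not pass the test (adjusted p = 0.157, exact permutation p = 0.0635, 2-sided). Without DicerCN embryo 2 it was 0.47 and passed (adjusted p = 0.0140). When the macrophage marker score was added as a covariate it was 0.23 (adjusted p = 0.652). That score itself differed between the groups, at 0.18 to 1.08 in DicerCN lenses and -0.35 to 0.35 in control lenses. In that fit 1.26% of all features were called, against 6.61% in the main fit.

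Other replication-dependent genes with a probe set of their own showed the same mixture. H2bc18, an H2B gene, had 8.44, 7.71, 7.49, 8.55 and 8.36 in DicerCN embryos, against 8.25, 8.88, 8.35, 8.19 and 8.07 in controls (change -0.24, adjusted p = 0.633). DicerCN embryos 2 and 3 were again the lowest of all arrays. H2bc21 had 6.82, 6.71, 6.74, 6.69 and 6.52 in DicerCN embryos, against 6.80, 6.84, 6.82, 6.85 and 6.88 in controls. All DicerCN embryos but the first lay below all controls, and the change was -0.14 (SE 0.07, adjusted p = 0.316, exact permutation p = 0.0159, 2-sided). H2aw, an H2A gene, averaged 9.70 ± 0.26 in DicerCN lenses and 9.79 ± 0.18 in control lenses (SD, n = 5 each, adjusted p = 0.788).

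For genes that a brighter shared set stands for, 18 further probe sets carry the symbol of 1 replication-dependent gene alone. With limma over the 19938 features whose probe sets name 1 symbol, of which 6.54% passed, 0 of these 18 passed. Their changes ran from -0.20 to 0.37, with 13 higher and 5 lower, and their groups overlapped throughout, whereas 7.38% of the features in that fit showed no overlap. Unadjusted p was under 0.05 for 3 of them, beside 18.6% of features, and all 3 were higher in DicerCN lenses, beside 8.36% of features. These were H4c9, H4c8 and H3c4, named after their values were seen. H4c9 had 8.31, 7.93, 7.83, 8.22 and 7.74 in DicerCN embryos, against 7.61, 7.63, 7.74, 7.81 and 7.39 in controls (change 0.37, adjusted p = 0.0945). H4c8 averaged 6.60 ± 0.14 in DicerCN lenses and 6.31 ± 0.15 in control lenses (SD, n = 5 each, adjusted p = 0.0968), and H3c4 averaged 7.08 ± 0.17 in DicerCN lenses and 6.80 ± 0.16 in control lenses (adjusted p = 0.134). H4c4, also named after its values were seen, changed by -0.14 (95% interval -0.69 to 0.41, adjusted p = 0.850). H2bc14, whose promoter is shown above, ran from 9.64 in DicerCN 2 to 10.68 in DicerCN 4, against 9.91 to 10.48 in controls (change -0.03, adjusted p = 0.961).

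**Figure D2:**
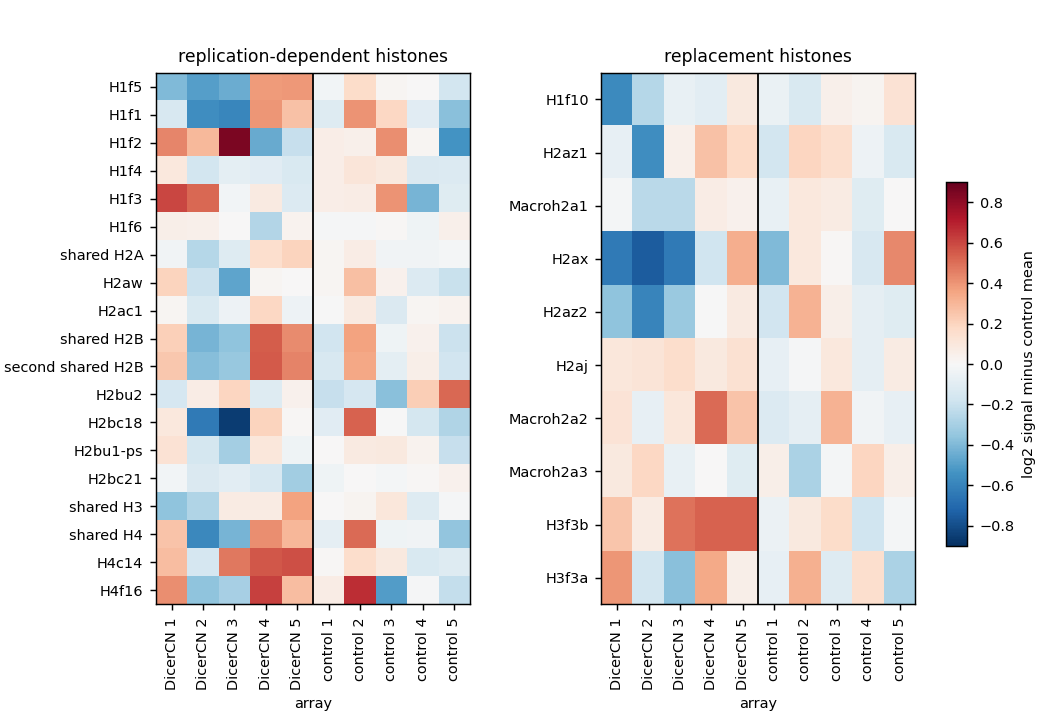
Log2 signal minus the control mean (colour) of the 19 replication-dependent features (left) and the 10 replacement features (right), in rows, for each DicerCN and control array, in columns. DicerCN 2 and 3 are mostly blue and DicerCN 4 and 5 mostly red, and control arrays are paler. Among the exceptions, H1f2, H2bc21 and H2bu2 (the last named after its values were seen) have the reverse order. H3f3b and H2aj are above the control mean in every DicerCN array.

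Among the replacement histones, both H3.3 genes were measured. H3.3 is the H3 variant placed in chromatin independently of replication by the HIRA and DAXX-ATRX chaperones, and H3f3a and H3f3b encode the same protein. H3f3b had 11.45, 11.28, 11.69, 11.74 and 11.74 in DicerCN embryos, against 11.15, 11.29, 11.37, 11.03 and 11.19 in controls. All DicerCN embryos but the second lay above all controls. The change was 0.38 (SE 0.10, 95% interval 0.15 to 0.60, 1.30-fold), and its adjusted p of 0.0516 with limma was just over the threshold (exact permutation p = 0.0238, 2-sided). In 5 alternative settings it lay under the threshold (adjusted p 0.0148 to 0.0439), whereas over all settings its adjusted p reached 0.370 and its change ran from 0.25 to 0.45. H3f3a had 11.11, 10.55, 10.34, 11.05 and 10.77 in DicerCN embryos, against 10.64, 11.03, 10.60, 10.87 and 10.43 in controls, and its change of 0.05 (95% interval -0.29 to 0.39, adjusted p = 0.919) could not be told from 0. The probe sets of both genes also carry the symbol of a pseudogene, so part of either signal may belong to it, and the difference between the 2 genes was not tested.

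H2A.Z, which marks promoters and is exchanged for H2A by the SRCAP and p400 complexes, is made by H2az1 and H2az2. H2az2 had 9.75, 9.52, 9.78, 10.11 and 10.19 in DicerCN embryos, against 9.94, 10.42, 10.16, 10.03 and 10.002 in controls (change -0.24, 95% interval -0.53 to 0.05, adjusted p = 0.375). DicerCN embryos 1 to 3 lay below all controls, and 4 and 5 within their range. With the G1/S and DNA replication score as a covariate the change in H2az2 was -0.42 and passed (adjusted p = 0.0352). H2az1 had 10.92, 10.44, 11.04, 11.26 and 11.18 in DicerCN embryos, against 10.83, 11.19, 11.15, 10.95 and 10.86 in controls (change -0.03, adjusted p = 0.951).

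H2ax encodes H2A.X, the variant phosphorylated at DNA breaks, whose messenger RNA can end in a stem-loop or in a poly(A) tail. It showed the lowest change of all 39 features, -0.37 (SE 0.20, 95% interval -0.81 to 0.06, adjusted p = 0.363, exact permutation p = 0.159, 2-sided). The signals were 9.57, 9.45, 9.57, 10.03 and 10.53 in DicerCN embryos, against 9.81, 10.30, 10.22, 10.06 and 10.64 in controls, so that DicerCN embryos 1 to 3 lay below all controls. When the neural retina score was added as a covariate its change was -0.61 (adjusted p = 0.0676), and when the macrophage score was added it was -0.11 (adjusted p = 0.915). Of all features, 5.56% were called with the retina score and 1.26% with the macrophage score.

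H2aj, an H2A variant gene, varied least among the replacement histones, with 8.38, 8.40, 8.44, 8.37 and 8.42 in DicerCN embryos, against 8.21, 8.27, 8.38, 8.20 and 8.36 in controls. The change was 0.12 (SE 0.07, adjusted p = 0.368, exact permutation p = 0.0159, 2-sided), and control 3 lay among the DicerCN arrays. H1f10, a linker histone outside the clusters, had 9.67, 9.98, 10.17, 10.15 and 10.33 in DicerCN embryos, against 10.18, 10.10, 10.29, 10.27 and 10.37 in controls (change -0.18, adjusted p = 0.444). The macroH2A genes, which encode H2A variants with a large extra domain, changed by -0.08 for Macroh2a1 (adjusted p = 0.709) and 0.18 for Macroh2a2 (adjusted p = 0.449).

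**Figure D3:**
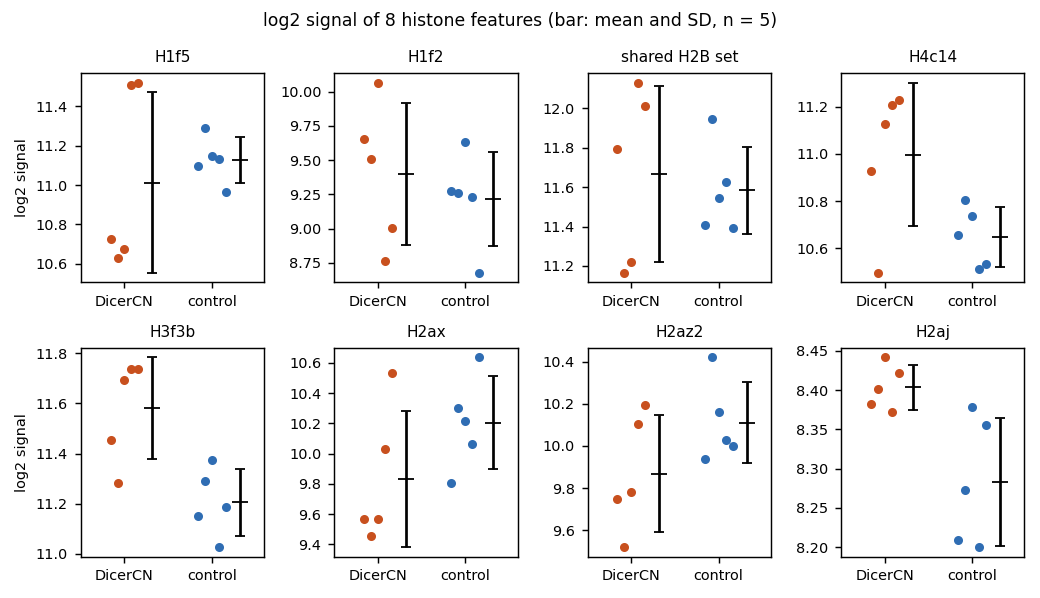
Log2 signal of 8 histone features in each DicerCN and control embryo (points), with the mean and SD of each group (bar, n = 5). H3f3b and H4c14 have all DicerCN points but that of embryo 2 above the controls, and H1f5 has DicerCN points on both sides of the controls.

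The germline variants, which include the H1 forms of sperm and egg (H1f7, H1f8) and short H2A and H2B forms of the male germline (H2ab1, H2al2a, H2bl1 and others), gave log2 signals of 4.56 to 6.59 in DicerCN lenses and 4.64 to 6.63 in control lenses. None of the 10 passed the test with limma (6.61% of all features did). An unadjusted p under 0.05 was found for 0 of them (18.7% of all features), and the changes ran from -0.08 to 0.12. The deposited table gives no detection call, so presence cannot be told from background. For the H2al1 family the choice of shared probe set mattered more than for the core histones: its 12 shared sets, annotated with 8 to 13 symbols, were all higher in mean, with changes of 0.09 to 0.32 and a lowest unadjusted p of 0.00574. The set used, the brightest, gave 0.12 (adjusted p = 0.580).

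Histone transcripts of both main classes mostly varied more between DicerCN embryos than between control embryos. The SD over 5 embryos was larger in DicerCN than in control lenses for 17 of 19 replication-dependent features (89.5%) and 8 of 10 replacement features (80.0%), against 64.6% of all features, and for 5 of 10 germline variants (50.0%). The median SD was 0.30 in DicerCN and 0.18 in control lenses for replication-dependent features, and 0.23 in DicerCN and 0.17 in control lenses for replacement features. It was 0.13 in DicerCN and 0.15 in control lenses for germline variants, and 0.16 in DicerCN and 0.13 in control lenses for all features. A larger SD in DicerCN lenses was common in other lists too: it was found for 93.1% of G2/M and mitosis genes, 83.8% of G1/S genes, 76.7% of histone chaperones, 92.9% of lens markers and 100.0% of neural retina markers. These shares are descriptions, since histone genes vary together and are not independent of one another.

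**Figure D4:**
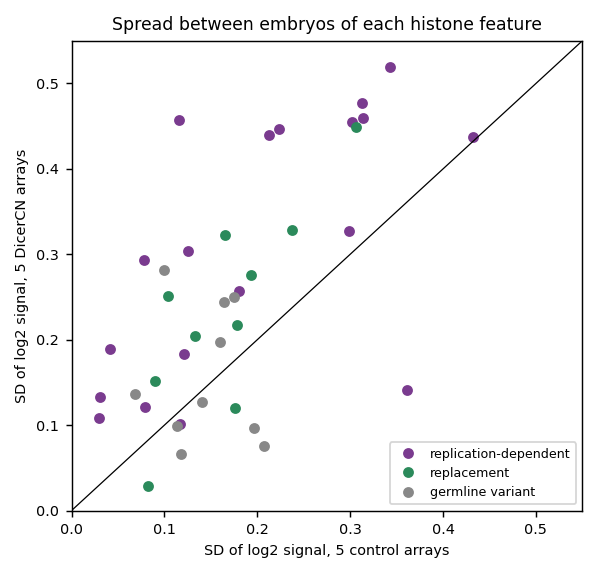
SD of log2 signal over 5 DicerCN arrays (vertical axis) against that over 5 control arrays (horizontal axis) for each of the 39 histone features, by class, with the line of equal spread. For 17 of 19 replication-dependent and 8 of 10 replacement features the point lies above the line.

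The embryos at either end were mostly the same, a pattern chosen after the values were seen. DicerCN 4 and 5 both exceeded DicerCN 2 and 3 in 12 of 19 replication-dependent features (63.2%), 7 of 10 replacement features (70.0%) and 10 of the 18 gene-specific sets (55.6%), against 1 of 10 germline variants and 17.8% of all features. The reverse order held for 3 of 19 replication-dependent features, 0 replacement features and 21.5% of all features. As a median deviation from the control mean, the replication-dependent class stood at 0.10, -0.20, -0.11, 0.15 and 0.04 in DicerCN embryos 1 to 5, against -0.0029, 0.11, 0.01, -0.03 and -0.16 in controls. The replacement class stood at 0.03, -0.20, -0.07, 0.08 and 0.11 in DicerCN embryos, against -0.07, 0.09, 0.06, -0.06 and -0.01 in controls. Among the DicerCN embryos both classes were lowest in embryo 2 and next lowest in embryo 3.

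The difference between the classes within an array, replication-dependent minus replacement, was 0.06, 0.01, -0.04, 0.07 and -0.07 in DicerCN embryos, against 0.07, 0.02, -0.05, 0.03 and -0.16 in controls. The ranges overlapped, from -0.07 to 0.07 in DicerCN lenses and from -0.16 to 0.07 in control lenses. This difference was described and not tested, so a shift smaller than the spread between embryos could have been missed.

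**Figure D5:**
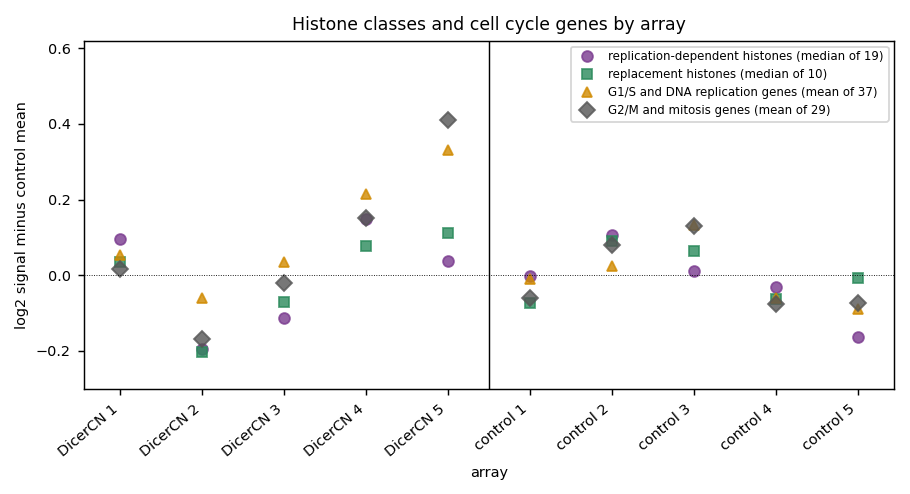
Median log2 deviation from the control mean of replication-dependent (circles) and replacement (squares) histones, and mean deviation of 37 G1/S and DNA replication genes (triangles) and 29 G2/M and mitosis genes (diamonds), in each DicerCN and control array. In DicerCN embryos every measure is lowest in embryo 2, and the cell cycle genes are highest in embryo 5.

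Cell cycle genes varied in part with the same embryos. Both cell cycle scores were highest in DicerCN 5 and control 3 of their groups, whereas the replication-dependent class was highest in DicerCN 4 and control 2. The mean deviation of 37 G1/S and DNA replication genes was 0.05, -0.06, 0.04, 0.21 and 0.33 in DicerCN embryos, against -0.01, 0.02, 0.13, -0.06 and -0.09 in controls. For 29 G2/M and mitosis genes it was 0.02, -0.17, -0.02, 0.15 and 0.41 in DicerCN embryos, against -0.06, 0.08, 0.13, -0.08 and -0.07 in controls. Of the G1/S genes 1 rose and 0 fell, against 2.56% higher and 4.05% lower of all features, 5 of 37 had an unadjusted p under 0.05, against 18.7%, and the median change was 0.09. Of the G2/M genes 0 passed (6.61% of all features did), with 3 of 29 at an unadjusted p under 0.05 (18.7% of all features). Their median change was 0.11. The one that rose was E2f2, an E2F transcription factor, with 7.30, 7.46, 7.75, 7.36 and 7.63 in DicerCN embryos, against 7.22, 6.93, 7.08, 6.92 and 7.06 in controls (change 0.46, adjusted p = 0.0161), without overlap. It no longer passed with the macrophage or erythroid score as a covariate or without DicerCN 5 and control 4. Of all features, 1.26% were called with the macrophage score, 3.99% with the erythroid score and 5.82% without those arrays. E2f1 was higher by 0.42 (adjusted p = 0.104), Kif23, a kinesin of cytokinesis, by 0.31 (adjusted p = 0.0766) and Ccnb2, a mitotic cyclin, by 0.34 (adjusted p = 0.0994). With the G1/S score as a covariate, the median change was -0.11 for replication-dependent and -0.10 for replacement histones.

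Markers of neural retina were highest in DicerCN 5 and 4 as well, but not lowest in DicerCN 2. The mean deviation of 15 neural retina markers was -0.28, 0.40, 0.02, 0.76 and 1.93 in DicerCN embryos, against -0.07, 0.45, 0.16, -0.21 and -0.33 in controls. All 15 were higher in mean, and 0 were called (6.61% of all features were). Unadjusted p was under 0.05 for 1 of them, beside 18.7% of all features. Of the 2 brightest retina markers, Fgf15 reached 12.04 in DicerCN 5, against 10.01 at most in controls (change 1.27, limma adjusted p = 0.434). The other, Sfrp2, changed by 0.15 (adjusted p = 0.616). Whether retinal cells had a part in the histone or cell cycle values of these embryos was not tested. For 8 pigment epithelium markers the deviation was 0.86, -0.10, 0.08, 1.42 and 0.97 in DicerCN embryos, against -0.15 to 0.18 in controls. With the neural retina score as a covariate 0 replication-dependent and 0 replacement histones passed, beside 5.56% of all features in that fit. Unadjusted p was under 0.05 for 1 replication-dependent and 4 replacement histones. The share of all features under that level in this fit is not at hand, so these counts cannot be judged. The median changes of these classes were -0.08 and -0.06.

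Macrophage markers were higher in mean for 15 of 16 genes, of which 2 rose (2.56% of all features did) and 12 had an unadjusted p under 0.05 (18.7% of all features), with scores of 0.18 to 1.08 in DicerCN lenses and -0.35 to 0.35 in control lenses. Csf1r, the receptor that marks macrophages, was among them (change 0.86, adjusted p = 0.0111). Erythroid scores were 0.09 to 0.53 in DicerCN lenses and -0.49 to 0.38 in control lenses, endothelial scores -0.38 to 0.82 in DicerCN lenses and -0.30 to 0.30 in control lenses, and mesenchymal scores -0.29 to 1.03 in DicerCN lenses and -0.46 to 1.03 in control lenses. Lens marker scores were -0.23, -0.44, -0.16, -0.52 and -0.79 in DicerCN embryos 1 to 5, against -0.08 to 0.08 in control lenses. Of 14 lens markers 13 were lower in mean and 2 were called lower (4.05% of all features were). Their median change was -0.18, and the largest was -3.36 for Crygs, named after its values were seen, which weighs heavily in the mean score. The part of these cells in the histone values was not tested beyond the covariates given.

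The genes that process histone messages were next. Of 21 genes for stem-loop processing and histone gene transcription, 0 passed with limma (6.61% of all features did). An unadjusted p under 0.05 was found for 2 of them (18.7% of all features), and their median change was 0.03. Slbp, which encodes the stem-loop binding protein, had 8.47, 8.21, 7.83, 8.65 and 8.31 in DicerCN embryos, against 7.82, 8.24, 7.98, 8.12 and 7.67 in controls (change 0.33, 95% interval 0.0037 to 0.65, adjusted p = 0.260). DicerCN 3 was the lowest DicerCN array and lay within the controls. Cpsf3, the nuclease that cuts histone pre-mRNA, had 9.47, 9.21, 9.12, 9.28 and 9.30 in DicerCN embryos, against 9.46, 9.45, 9.43, 9.44 and 9.43 in controls (change -0.17, adjusted p = 0.247).

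Of 30 histone chaperones and deposition factors, 1 rose and 1 fell (6.61% of all features were called), 8 had an unadjusted p under 0.05 (18.7% of all features) and the median change was 0.12. Supt16, a subunit of the FACT chaperone of H2A and H2B, rose by 0.38, with 10.38, 10.25, 10.07, 10.38 and 10.54 in DicerCN embryos, against 9.90, 9.96, 10.05, 10.03 and 9.77 in controls (adjusted p = 0.0312), and its groups did not overlap. Znhit1, a subunit of the SRCAP complex that deposits H2A.Z, fell by 0.54, with 8.05, 8.37, 8.74, 8.40 and 8.36 in DicerCN embryos, against 8.95, 8.73, 9.26, 8.66 and 9.02 in controls (adjusted p = 0.0317). DicerCN 3 overlapped the controls. Neither held under all settings. Supt16 and Znhit1 both missed the threshold with adjustment over every probe set, with the macrophage or the erythroid score as a covariate, and without DicerCN 1, 4 or 5 or control 1 or 5. With the macrophage score 1.26% of all features were called, and with the erythroid score 3.99%.

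Among 8 centromere and other histone fold proteins 0 passed with limma (6.61% of all features), 1 had an unadjusted p under 0.05 (18.7%), and the median change was -0.11. Cenpx, a small histone fold protein of the kinetochore and of the Fanconi anaemia pathway, changed by -0.24 (adjusted p = 0.0998) and Cenpt by 0.20 (adjusted p = 0.383).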

How the data were processed

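Lens RNA of 5 DicerCN and 5 control embryos was measured on 1 array each. The deposited values are log2 signals for 35557 probe sets, already scaled between arrays; the log base was read from their range (1.91 to 15.2). The submitters' processing notes name GCOS, and how probes were summarised is not stated in the sources used here. Arrays give no molecule counts, so their number limits the precision. By the platform annotation 21789 probe sets carry a single gene symbol, 1621 carry more than 1, and 12147 without any were left out. Annotation of macroH2A and other newer symbols was resolved through RefSeq synonyms (GRCm38.p6). A probe set mostly of one histone class did not stand for a gene of another, so H2ax and H2aj kept their own sets.

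DicerCN and control were compared with limma 3.58.1 (R 4.3.3; lmFit, eBayes, 2-sided) over 20162 features with Benjamini-Hochberg adjustment, and a call is an adjusted p under 0.05. Single values also have an exact 2-sided permutation p over 252 divisions, of which 0.00794 is the smallest possible. The procedure was tested on simulated data. For class and list scores, each member's log2 deviation from its control mean was taken, and the median (classes) or mean (lists) formed, without a test. Histones named are those called, the 8 brightest and the 8 with the smallest p of each of the replication-dependent and replacement classes; of each list, the members called, or the 2 with the smallest p; of markers, the 2 brightest. Any other gene is said to have been picked with its values in view. The members and lists were chosen with earlier results of these data known. Some genes of the lists are not reported here. Alternatives covered the replicate number as a block, normalization, filtering, array weights, variance trend, choice of probe set, class membership, arrays left out and marker scores as covariates.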

Additional observations from a re-analysis of the deposited data

Results flagged for a closer look

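In 8 of 120 groups of 5 arrays examined over the histone probe sets, 1 array stood apart from the other 4 by Dixon's test, where chance alone gives about 1 in 20. The first 3 concern replication-dependent or replacement histones used above. H1f6, the testis H1, was 5.11 in DicerCN 4 and 5.38 to 5.43 in the other DicerCN arrays. The pseudogene H2bu1-ps was 7.56 in control 5 and 7.78 to 7.86 in the other controls. Macroh2a2 was 8.31 in control 3 and 7.87 to 7.96 in the other controls.

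Among germline variants, H2ab1 was 5.87 in DicerCN 5 and 6.10 to 6.17 in the other DicerCN arrays, and H2bfm was 5.81 in DicerCN 2 and 5.20 to 5.33 in the others. Among gene-specific sets outside the members, H2ac15 was 9.91 in control 4 and 10.06 to 10.12 in the other controls. H3c7 was 3.28 in control 5 and 3.51 to 3.59 in the others. H4c4 was 10.61 in control 2 and 9.82 to 9.98 in the others, and control 2 was likewise the highest control array for the shared H4 and H2B sets.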

How the results depend on the processing

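The count of all features called was 1332 and ranged from 805 (without control 1; 886 without control 2) to 1337 over the 10 single-array leave-outs. It was 254 with the macrophage score as a covariate (28.3% of calls higher) and 804 with the erythroid score (30.5% higher). The replicate numbers did not pair the embryos (correlations of same-numbered deviations -0.09 to 0.19), and with the replicate number as a block 1122 features were called, among them 0 replication-dependent and 0 replacement histones. Replication-dependent calls were 0 in every alternative except without DicerCN 2, where H4c14 made it 1 (leave-out range 0 to 1). Their median change ran from -0.11 (-0.115 with the G1/S score as a covariate) to 0.03. Replacement calls were 1, always H3f3b, under quantile normalization, without the lowest 25% of features by signal, with array weights, with a variance trend and without DicerCN 2 (leave-out range 0 to 1). They were 1, H2az2, with the G1/S score, where the median change was -0.0988. Of 521 values of the 23 named histones under the alternatives, 7 were past the threshold and 34 differed in sign without a call. Chaperone calls, 2 at first, were 1 with the replicate block, without control 4 and DicerCN 5, with the retina score and with the G1/S score, were 0 with adjustment over every probe set, the macrophage score and the erythroid score, and were 0 to 3 over single-array leave-outs. G1/S calls were 1 to 2 over leave-outs and 0 without control 4 and DicerCN 5, with the macrophage score and with the erythroid score. G2/M calls were 0 to 1 over leave-outs and 2 with the G1/S score, and centromere calls 1 with the G1/S score. The causes of these moves were not tested.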
